A study of Homo sapiens and Pan troglodytes with 11 samples.

Results

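NPAS3, a gene for a transcription factor of neurons, was followed through 11 single-cell libraries of human and chimpanzee neurons. It was chosen by its name, with earlier results of these data known, and is 1 of the 24 genes for which the libraries held probes. Its column was present in all 11 count matrices. Transcripts were counted by HyPR-seq, in which fixed and permeabilised cells are hybridised with pooled probes to chosen genes and to guide barcodes. Each cell is then tagged in a droplet with a barcoded bead, and each captured probe carries a unique molecular identifier (UMI), so that a UMI count estimates probe molecules and not amplified copies.

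The human group was 6 libraries of excitatory neurons from the induced pluripotent stem cell line WTC11, and the chimpanzee group was 5 libraries of the same labelled cell type from the line C3649. All neurons were 2 weeks old per the design text, and all groups were under CRISPR interference (CRISPRi), in which an inactive Cas9 that carries a repressor binds where its guide RNA matches the genome and lowers the activity of that site. The series concerns human accelerated regions, sequences conserved among other vertebrates that gained many changes in humans. Screen replicate 1 held human libraries 1 to 3 and chimpanzee libraries 1 and 2, and screen replicate 2 held human 4 to 6 and chimpanzee 3 to 5. The labels name no untreated library, no age or treatment that differs between libraries, and no target for any of the 28 guide barcodes. Each species was 1 line, so species and line cannot be told apart, and nothing in the labels gives libraries separate cultures. P-values therefore measure the spread between these libraries, which may be technical.

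NPAS3 encodes a basic helix-loop-helix protein with PAS domains, a family whose members bind DNA as pairs with a shared partner protein. It is expressed in the developing and adult brain, where it is known for roles in neurogenesis and in the formation of interneurons. Its locus is known for holding many noncoding human accelerated regions, which is why it is of interest in a screen of such elements.

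In the GENCODE release 29 annotation of GRCh38, NPAS3 (ENSG00000151322.18) lies on chromosome 14 from 32934933 to 33804176, on the plus strand. It spans 869 kb and has 13 annotated transcripts, 10 of them protein-coding, with 11 different start sites and up to 12 exons. No other annotated gene overlaps it (0 genes on either strand), so its reads are not shared with an overlapping partner in this annotation. Which exons the probes cover was not analysed here. AKAP6, an anchoring protein for protein kinase A, ends 97.3 kb before NPAS3 starts, with 0 protein-coding genes between them. ARHGAP5, a GTPase-activating protein, ends 775 kb before it. BAZ1A, a subunit of chromatin remodelling complexes, begins 949 kb after NPAS3 ends, and PSMA6, a proteasome subunit, 1474 kb after it. The other genes measured in every library, TENM3 (a teneurin, a cell-surface protein of neuronal contacts) and DCTD (deoxycytidylate deaminase), lie on chromosome 4.

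These 7 genes were on both probe panels, and they form the common scale below. The first panel had 10 genes and was used in human 1, 2, 3 and 6 and chimpanzee 1, 2 and 5. The larger panel had 21 genes and was used in human 4 and 5 and chimpanzee 3 and 4, all of screen replicate 2. The libraries held 1199 to 7562 cells, 41950 in all, with 420217 to 1818477 gene UMIs and a median of 28 (human 4) to 272 (chimpanzee 1) UMIs of the 7 genes per cell. DAZL, a germ cell gene not known to be expressed in neurons, gave a measure of background on the larger panel: 24.8% to 34.0% of cells had a DAZL UMI. Of the neuronal genes on that panel, NRSN2 was found in 84.8% to 97.2% of cells, ONECUT2 in 66.4% to 90.05% and SCRT2 in 48.8% to 67.5%. No probe of either panel marks excitatory neurons specifically, so that part of the label could not be checked.

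Some libraries shared cell barcodes. In total, 2937 barcodes occurred in more than 1 library and accounted for 7046 of the 41950 cells. Of the 55 pairs of libraries, 6 shared more than 200 barcodes, against at most 27 in any other pair and about 1 to 2.5 per pair for random barcodes of 12 bases in these 6. These 6 pairs joined human 4, human 5 and chimpanzee 3 to one another (995 to 1060 barcodes each) and human 6, chimpanzee 4 and chimpanzee 5 to one another (234 to 1436). The share of a library's cells whose barcode was found elsewhere was 31.0% in human 4, 25.8% in human 5, 5.46% in human 6, 19.5% in chimpanzee 3, 32.5% in chimpanzee 4 and 29.2% in chimpanzee 5, and under 1% in screen replicate 1. NPAS3 in such cells was at the level of the library and not of the barcode. Over the same 1003 barcodes NPAS3 made up 12.2% of the 7 genes in human 4 and 23.7% in chimpanzee 3. In the 6 pairs, 23.4% to 42.0% of the shared barcodes had the same leading guide barcode in both libraries. Ties between guide barcodes were not set aside in this value, and no expected rate was computed. Results are given for all cells, and beside them for the 34904 cells whose barcode occurred once.

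NPAS3 was detected in nearly every cell of both species. At least 1 NPAS3 UMI was found in 99.9% of cells of human 1, 99.9% of human 2, 100% of human 3, 92.6% of human 4, 98.6% of human 5 and 99.9% of human 6. In the chimpanzee libraries 1 to 5 the share of cells with a UMI was 100%, 99.5%, 99.98%, 99.6% and 99.96%. The lowest of these, human 4, had 282 cells without NPAS3 (exact 95% binomial interval 91.8% to 93.4% for the share detected) and was also the library with fewest UMIs per cell. In the 4 libraries with DAZL probes, NPAS3 was found in 92.6% to 99.98% of cells where DAZL was found in 27.6% (human 4), 34.0% (human 5), 24.8% (chimpanzee 3) and 24.9% (chimpanzee 4) of the same cells. Intervals cover counting error only.

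The mean number of NPAS3 UMIs per cell was 18.0, 17.6 and 18.3 in human 1, 2 and 3, and 5.75, 7.73 and 8.64 in human 4, 5 and 6. In chimpanzee 1 to 5 it was 58.6, 19.8, 22.6, 16.5 and 14.4. The species overlapped on this scale: human libraries of screen replicate 1 lay above chimpanzee 4 and 5, and chimpanzee 1 stood far above all others. Depth moved with it. The mean UMIs per cell of the other 6 genes were 150, 133 and 124 in human 1 to 3 but 45.3, 61.3 and 65.2 in human 4 to 6, and 252, 109, 77.6, 67.9 and 61.9 in chimpanzee 1 to 5. Chimpanzee libraries had on average 2.00 times the NPAS3 UMIs per cell (a log2 difference, human minus chimpanzee, of -0.999), with a two-sided exact permutation p of 0.0714 over 462 arrangements, adjusted p = 0.102 over the 10 NPAS3 measures tested this way. Permuting species only within a screen replicate, a block on the replicate, gave -1.11 and an exact permutation adjusted p of 0.01. Without chimpanzee 1 it was -0.66, or 1.58 times (exact permutation adjusted p = 0.197). Without the shared barcodes the difference was -0.93 (exact permutation adjusted p = 0.108).

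**Figure D1:**
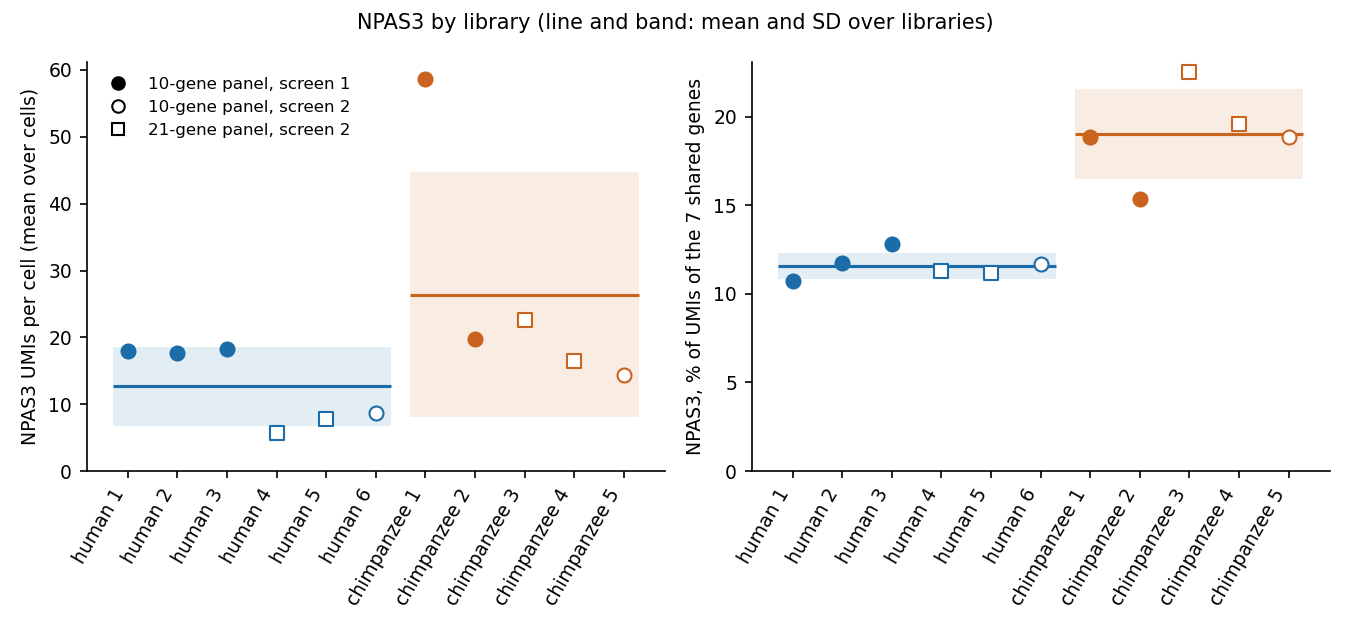
Left, mean NPAS3 UMIs per cell in each library; right, NPAS3 as a percent of the UMIs of the 7 genes on both panels. Points are libraries, marked by panel and screen replicate, and the line and band are the mean and SD over libraries of a species; the species overlap on the left and are apart on the right, at 10.7% to 12.8% against 15.4% to 22.5%.

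Relative to the 7 genes of both panels, NPAS3 was lower in every human library than in any chimpanzee library. Its share of the UMIs of these genes was 10.7%, 11.7%, 12.8%, 11.3%, 11.2% and 11.7% in human 1 to 6, a mean of 11.6% ± 0.723 (SD, n = 6). In chimpanzee 1 to 5 the share was 18.9%, 15.4%, 22.5%, 19.6% and 18.8%, a mean of 19.0% ± 2.55 (SD, n = 5). The human libraries thus lay in a narrow band although their depth varied, while the chimpanzee libraries were more spread, with chimpanzee 2 lowest and chimpanzee 3 highest. The average share was 1.64 times as high in chimpanzee libraries (log2 difference -0.71; two-sided exact permutation p = 0.00216, the smallest that 462 arrangements allow, adjusted p = 0.00433). Of the 10 NPAS3 measures tested this way 5 passed (50%). The shares of the 7 genes sum to 100%, and 4 of the 7 had libraries that did not overlap between species (57.1%), of which 2 (28.6%) were lower in human, namely NPAS3 and TENM3. A separation of this kind was therefore common among these genes.

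Without shared barcodes the NPAS3 share was 11.1% in human 4 and 5, 22.3% in chimpanzee 3 and 19.8% in chimpanzee 4, and the log2 difference was -0.71. Within screen replicate 1 alone the difference was -0.54 and within screen replicate 2 alone -0.83, where the arrangements are too few to pass the threshold (exact permutation adjusted p = 0.143 in each).

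The share did not depend strongly on how many UMIs a cell had, with exceptions. When the cells of a library were split at the quartiles of their UMI count, the NPAS3 share of human 1 was 10.9%, 10.6%, 10.5% and 10.8% from the shallowest to the deepest group. In chimpanzee 2 it was 12.5%, 15.1%, 15.9% and 15.9%, and in chimpanzee 4 it was 17.7%, 19.7%, 20.5% and 19.5%. The shallowest cells of these chimpanzee libraries thus had the lowest NPAS3 share, but each remained above the highest human library or, for chimpanzee 2, within the human range.

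In a model of the 7 genes over all libraries, edgeR's quasi-likelihood test also placed NPAS3 lower in human neurons, relative to these genes. Benjamini-Hochberg adjustment was over all 24 genes. The genes on a single panel entered it from a separate fit of the libraries and genes of their own panel. Normalized to effective library size, NPAS3 stood at 116, 127, 139, 110, 111 and 119 per 1000 UMIs of the 7 genes in human 1 to 6, and at 190, 155, 206, 182 and 178 in chimpanzee 1 to 5. No human library reached the lowest chimpanzee library. The log2 difference was -0.60 ± 0.08 (SE), edgeR adjusted p = 5.56e-06. Against this background, pooled from fits with different libraries and scales, 14 of the 24 genes were called in either direction (58.3%). Of the 24, 5 were called lower in human (20.8%). By size of the difference NPAS3 was number 11 of 24, a rank that sets values from unlike scales side by side. SOCS2 (1.21) and ONECUT2 (1.08), for example, ranked above it with values from the larger panel's fit. In that fit NPAS3 was at -1.25. Without the shared barcodes the 7-gene value of NPAS3 was -0.61 ± 0.08, and with screen replicate as a block -0.61 ± 0.08.

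The size of the difference varied between fits that used other genes as the scale or other libraries. Relative to all 10 genes of the first panel, NPAS3 had a log2 difference of -0.76 ± 0.13 (edgeR adjusted p = 0.000583, with 5 of 10 genes called, 50%, and 3 lower in human, 30%). Relative to the 21 genes of the larger panel the difference was -1.25 ± 0.17 (edgeR adjusted p = 2.54e-08, with 13 of 21 called, 61.9%, and 6 lower in human, 28.6%). These fits differ from each other in their libraries as well as in their genes, so the part of each cannot be told apart. The larger panel has 2 libraries per species, and without TMM scaling factors its value was -1.13 ± 0.51, which did not pass (edgeR adjusted p = 0.116). Over the same 11 libraries, when AKAP6, the gene with most UMIs of the 7 in human libraries, was left out of the scale, the difference shrank to -0.42 ± 0.08 (edgeR adjusted p = 9.54e-05). In every one of these fits NPAS3 was lower in human neurons.

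Ratios to single genes do not move with the rest of a panel, and the contrast held against some partners only. Several partners themselves differed between species, so a ratio does not give the part of NPAS3 alone. By the edgeR fit above, log2 differences, human minus chimpanzee, were 0.98 for AKAP6, 0.72 for ARHGAP5, 0.51 for PSMA6 and 0.04 for DCTD. They were -0.59 for TENM3 and -0.59 for BAZ1A, close to the -0.60 of NPAS3. NPAS3 was set against each of the other 6 genes in the same library, and 4 of the 6 ratios differed between species with no overlap of libraries. The 6 ratios share the NPAS3 counts. A like count with another gene in the place of NPAS3 was not made, so this count is not shown to be particular to NPAS3. Ratios compare the species and not the levels of the genes, since probes differ in number and efficiency between genes.

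Against its neighbour AKAP6, NPAS3 had 31.6, 35.5, 38.7, 44.5, 43.0 and 38.8 UMIs per 100 AKAP6 UMIs in human 1 to 6. In chimpanzee 1 to 5 there were 93.3, 65.9, 216, 191 and 104. Every chimpanzee library lay above every human library, and the libraries of the larger panel were highest in each species. The ratio was 3.15 times as high in chimpanzee libraries (log2 difference -1.66; exact permutation p = 0.00216, adjusted p = 0.00433).

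Against ARHGAP5, on the same side of NPAS3 as AKAP6, there were 106, 114, 137, 91.9, 84.7 and 110 NPAS3 UMIs per 100 in the human libraries and 305, 239, 255, 233 and 303 in the chimpanzee libraries. The groups were again apart, by 2.50 times (log2 difference -1.32; exact permutation adjusted p = 0.00433). Against PSMA6, on the far side, the human libraries had 103, 93.2, 113, 81.6, 90.5 and 91.9 per 100 and the chimpanzee libraries 275, 139, 239, 181 and 231, with chimpanzee 2 nearest to the human range. This was a 2.18 times higher ratio in chimpanzee libraries (log2 difference -1.12; exact permutation adjusted p = 0.00433).

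Against DCTD, on another chromosome, the contrast was smaller but complete. NPAS3 had 61.8, 77.8, 90.4, 77.1, 77.0 and 76.4 UMIs per 100 of DCTD in human and 111, 100.3, 149, 127 and 112 in chimpanzee libraries. The ratio was 1.56 times as high in chimpanzee libraries (log2 difference -0.64; exact permutation adjusted p = 0.00433).

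No such contrast was seen against TENM3 or BAZ1A. NPAS3 had 82.8, 92.7, 89.1, 81.0, 81.7 and 86.2 UMIs per 100 of TENM3 in human 1 to 6 and 89.2, 75.4, 103, 81.6 and 84.1 in chimpanzee 1 to 5, so the groups lay on top of each other. The mean log2 ratios were -0.23 ± 0.08 (SD, n = 6) and -0.22 ± 0.17 (SD, n = 5), a difference of -0.01 (exact permutation p = 0.887, adjusted p = 0.911). Against BAZ1A the human libraries had 233, 250, 280, 128, 125 and 197 per 100 and the chimpanzee libraries 194, 190, 190, 170 and 201. The human libraries straddled the chimpanzee range: those of screen replicate 1 lay above it and the human libraries of the larger panel were under it. The difference was 0.03 over all libraries (exact permutation p = 0.911), 0.40 in screen replicate 1 alone and -0.35 in screen replicate 2 alone. Without the shared barcodes the 6 ratios gave differences of -1.68 (AKAP6), -1.34 (ARHGAP5), -1.12 (PSMA6), -0.64 (DCTD), -0.01 (TENM3) and 0.01 (BAZ1A), with the first 4 passing (exact permutation adjusted p = 0.00433 each).

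**Figure D2:**
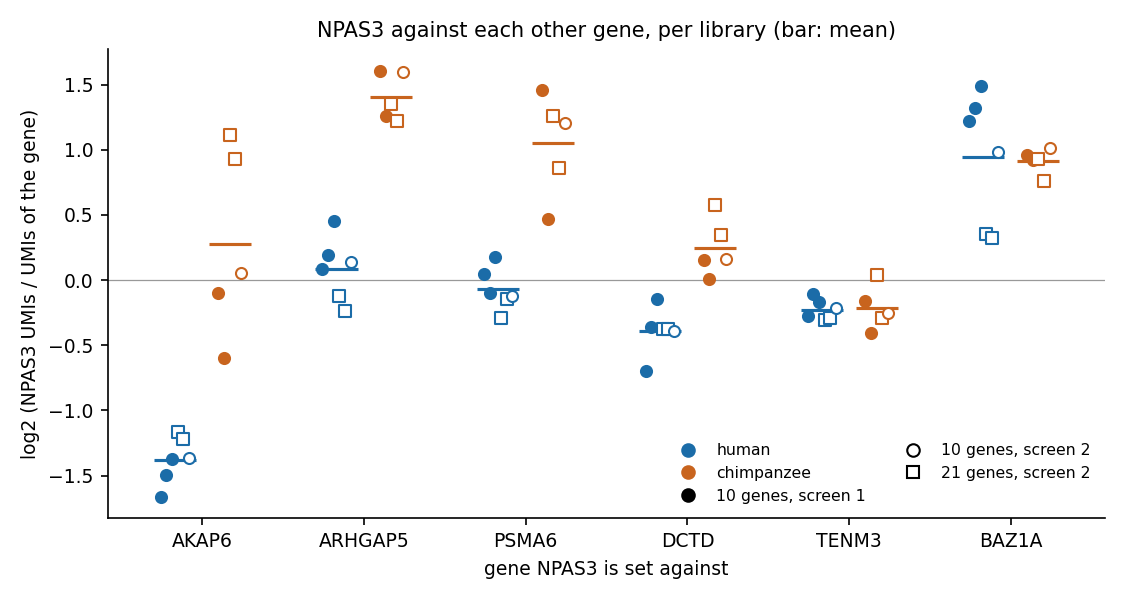
Log2 ratio of NPAS3 UMIs to the UMIs of each other gene on both panels, 1 point per library, marked by panel and screen replicate, with a bar at the mean of each species. Human and chimpanzee libraries are apart against AKAP6, ARHGAP5, PSMA6 and DCTD and overlap against TENM3 and BAZ1A.

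Genes on a single panel gave further partners, here as values without a test of their own. Per 100 UMIs of PUM2, an RNA-binding translational repressor on the first panel, NPAS3 had 26.4, 27.3, 33.0 and 31.1 UMIs in human 1, 2, 3 and 6 and 40.1, 37.6 and 46.0 in chimpanzee 1, 2 and 5. Per 100 UMIs of RHOB, a small GTPase, there were 13.5, 16.6, 28.2 and 20.4 against 46.1, 30.1 and 40.8. Per 100 UMIs of LAPTM4A, a lysosomal membrane protein, there were 33.1, 60.4, 56.7 and 49.6 against 89.6, 87.8 and 94.3. The chimpanzee libraries were higher against each of these 3 genes, which are all those on the first panel alone. GAPDH, a glycolytic enzyme and common reference on the larger panel, differed between the human libraries themselves: NPAS3 stood at 3.76 per 100 GAPDH UMIs in human 4 and 9.45 in human 5, and at 14.9 and 14.1 in chimpanzee 3 and 4. Both human values were below both chimpanzee values. Of the 14 genes on the larger panel alone, 12 had both human ratios below both chimpanzee ratios and 2 had them above. These ratios all share the NPAS3 counts of the same libraries, so they do not count as separate evidence. The counts are not shown to be particular to NPAS3 either. Per 100 TENM3 UMIs NPAS3 stood at 81.0 and 81.7 in human 4 and 5 and at 103 and 81.6 in chimpanzee 3 and 4. TENM3 thus moved much as NPAS3 did. With 2 libraries per species, groups that do not overlap also arise often without a species difference. The exceptions, named after their values were seen, were BTG1, an antiproliferative factor, and GLI2, a transcription factor of Hedgehog signalling. Per 100 BTG1 UMIs NPAS3 stood at 289 and 277 in human 4 and 5 against 205 and 193 in chimpanzee 3 and 4, and per 100 GLI2 UMIs at 1014 and 1069 against 806 and 783.

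Cells of a library were next compared with each other. In cells with at least 30 UMIs of the 7 genes, the median NPAS3 share was 10.5%, 11.5%, 12.7%, 10.5%, 10.5% and 11.5% in human 1 to 6 and 18.6%, 14.6%, 22.2%, 18.6% and 18.7% in chimpanzee 1 to 5. The 10th percentile of cells stood at 4.86% to 7.91% in human and 5.41% to 12.3% in chimpanzee libraries, and the 90th percentile at 14.95% to 18.4% and 24.3% to 32.8%. The measured shares of single cells therefore overlapped between the species, while the medians of libraries did not. Counting error, which is large in a cell with few UMIs, widens these percentiles and was not removed here. Its part in the overlap was not tested. Cells under 30 UMIs, left out here, numbered 2010 in human 4, 329 in human 5 and at most 153 in any other library.

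**Figure D3:**
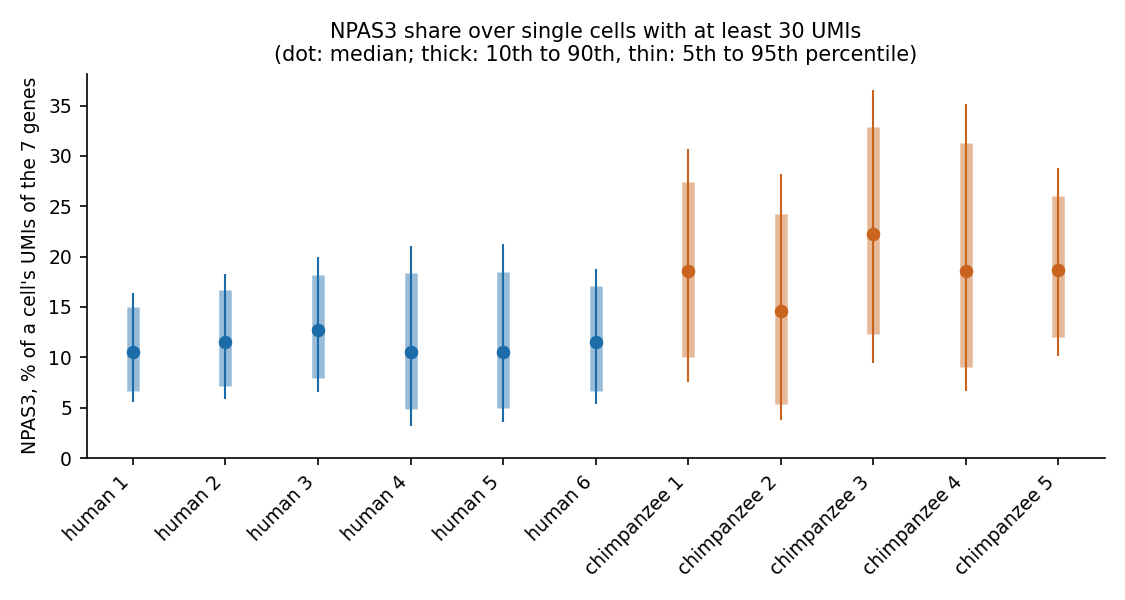
Distribution over single cells of the NPAS3 share of the UMIs of the 7 genes, per library, in cells with at least 30 such UMIs. Dots are medians, thick bars run from the 10th to the 90th and thin lines from the 5th to the 95th percentile. Medians are 10.5% to 12.7% in human and 14.6% to 22.2% in chimpanzee libraries, and the bars, which include counting error, overlap.

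Since detection rises with depth, cells with at least 30 UMIs of the 7 genes were thinned to 30, which kept 1815 of 3825 cells in human 4, 4292 of 4621 in human 5 and most cells of the other libraries. NPAS3 would then be detected in 95.9%, 96.8%, 97.7%, 94.8%, 95.5% and 97.6% of these cells in human 1 to 6 and 98.6%, 95.7%, 99.5%, 98.7% and 99.7% of chimpanzee 1 to 5. Chimpanzee 2 lay within the human range and the other chimpanzee libraries above it. The means were 96.4% ± 1.17 (SD, n = 6) and 98.4% ± 1.59 (SD, n = 5), and the difference of -2.08 percentage points did not pass adjustment (exact permutation p = 0.0476, adjusted p = 0.0794). It passed without chimpanzee 2 (-2.76, exact permutation adjusted p = 0.0159) and at 20 UMIs (-5.67, exact permutation adjusted p = 0.0144). At 60 UMIs, which 1252 cells of human 4 reached and where every library was at 99.3% or more, it was -0.12 (exact permutation adjusted p = 0.601).

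Cell-to-cell variation of the NPAS3 share was measured as the coefficient of variation (CV, the SD over the mean) after the variance expected from counting was removed. The CV was 0.16, 0.19, 0.22, 0.37, 0.33 and 0.23 in human 1 to 6 and 0.28, 0.42, 0.28, 0.36 and 0.12 in chimpanzee 1 to 5. Chimpanzee 2 was the most variable library and chimpanzee 5 the least. The means of 0.25 ± 0.08 (SD, n = 6) and 0.29 ± 0.11 (SD, n = 5) differed by less than the spread between libraries (-0.05; exact permutation p = 0.452, adjusted p = 0.565). In screen replicate 1 alone the CV difference was -0.16, with no overlap of libraries, and in screen replicate 2 alone it was 0.05 (exact permutation adjusted p = 0.143 and 0.600). Without chimpanzee 2 the difference was -0.01 and without chimpanzee 5 it was -0.09. In human 6 the CV fell to 0.08 without the 1% of cells with most UMIs. The top 10% of cells by NPAS3 held 21.4% to 35.7% of a library's NPAS3 UMIs, close to the 20.0% to 30.9% of all 7-gene UMIs held by the top 10% of cells by that total.

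Likeness to NPAS3 was measured in 2 ways. Across the 11 libraries, after the species means were removed, the log2 ratio of NPAS3 to TENM3 varied least (SD 0.13), followed by DCTD (0.20). The other genes had SDs of 0.22 (ARHGAP5), 0.29 (PSMA6), 0.38 (BAZ1A) and 0.50 (AKAP6). TENM3 thus had the steadiest ratio to NPAS3 with the species pooled, and no difference between them. AKAP6, the measured gene nearest to NPAS3, had the least steady pooled ratio. The order differed by species. The SD of the AKAP6 ratio was 0.72 in chimpanzee and 0.18 in human libraries. For BAZ1A it was 0.09 in chimpanzee libraries, under the 0.17 of TENM3, and 0.50 in human libraries, the highest there.

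Across cells, the correlation of the NPAS3 share with that of each other gene was computed with counting variance removed, over 1199 to 7562 cells per library that share library, depth and panel. The shares of a cell sum to 100%, so that correlations below 0 are built into the measure. The median over the 11 libraries was highest for ARHGAP5 (0.05) and BAZ1A (-0.03), then DCTD (-0.03), TENM3 (-0.16), PSMA6 (-0.17) and AKAP6 (-0.34). ARHGAP5 was above 0 in 6 of 11 libraries, which is no steady relation. AKAP6 was below 0 in 10 of 11 libraries, with -0.71 in chimpanzee 1 and -0.72 in chimpanzee 2, so that cells with a larger AKAP6 share had a smaller NPAS3 share. AKAP6 also had the largest share of the 7 genes in each of the human libraries (25.3% to 33.9%) and 10.3% to 23.3% in chimpanzee libraries.

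Human 6 stood apart in these correlations, at -0.84 for AKAP6 and 0.68 to 0.82 for ARHGAP5, DCTD, PSMA6 and TENM3. These values depended on the cells with most UMIs. Without the top 1% of cells they were 0.18 for AKAP6, -0.31 for ARHGAP5, -0.34 for DCTD, -0.10 for PSMA6 and 0.21 for TENM3. The cell with most UMIs in that library had 1630 UMIs of the 7 genes, of which 84.4% were AKAP6 and 1.72% NPAS3. Without the top 1% of cells in every library, the median for AKAP6 was -0.31 and for ARHGAP5 -0.02.

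Guide barcodes were used to ask whether cells that carried a given guide differed in NPAS3. A cell was assigned to the barcode with most guide UMIs if that barcode had 5 or more UMIs and made up 70% or more of all guide UMIs in the cell. By this rule 11.7% to 32.9% of cells were assigned in human 1 to 5 and chimpanzee 1 to 4, but only 3 cells in human 6 and 6 in chimpanzee 5. UMIs were summed per library over the cells of a barcode and over all other assigned cells, and the 2 sums were compared with the library as a block. With no barcode tied to a control or to a site, a shift shared by every barcode would not show in this comparison.

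In human neurons no barcode changed NPAS3 past the threshold: 0 of 22 barcodes passed by edgeR's quasi-likelihood test with Benjamini-Hochberg adjustment over 154 pairs of barcode and gene, of which 0 passed (0%). At an unadjusted p under 0.05 there was 1 barcode for NPAS3 and 10 pairs in all, and DESeq2 called 0 barcodes for NPAS3 with 1 unadjusted. The barcode with the smallest p was SplintRbar14. In its 121 cells NPAS3 made up 8.52%, 8.10%, 10.5%, 10.6% and 10.6% of the 7 genes in human 1 to 5, against 10.1%, 11.97%, 12.5%, 11.2% and 11.5% in the other assigned cells. NPAS3 was lower in 5 of 5 libraries, by a log2 difference of -0.19 ± 0.06 (edgeR adjusted p = 0.729).

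The next barcodes in human neurons were Brainbar4 with 0.12 ± 0.06 (higher in 4 of 5 libraries), SplintRbar28 with -0.10 ± 0.05 (lower in 5 of 5), SplintRbar12 with 0.07 ± 0.05 and Brainbar5 with 0.09 ± 0.05 (each higher in 4 of 5). Their edgeR adjusted p ranged from 0.790 to 0.821. All 22 values were under 0.25 in size, 11 above and 11 below 0. The median size for NPAS3 was 0.05, as for all pairs of barcode and gene (0.05), with a median SE of 0.06.

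In chimpanzee neurons 0 of 24 barcodes passed for NPAS3, and 0 of 168 pairs (0%), by the same edgeR test. At an unadjusted p under 0.05 there were 6 barcodes for NPAS3 and 14 pairs in all, and DESeq2 called 0 barcodes for NPAS3 with 6 unadjusted. SplintRbar22 and SplintRbar27 came nearest. In the 241 cells with SplintRbar22, NPAS3 made up 14.2%, 11.2%, 16.6% and 16.3% in chimpanzee 1 to 4, against 15.1%, 11.6%, 19.9% and 18.4% in the other assigned cells. It was lower in 4 of 4 libraries (-0.20 ± 0.05, edgeR adjusted p = 0.0775). In the 193 cells with SplintRbar27 it made up 15.9%, 13.4%, 21.4% and 19.1% against 14.9%, 11.5%, 19.8% and 18.0%, higher in 4 of 4 (0.14 ± 0.04, edgeR adjusted p = 0.0775). By edgeR's newer default both passed (adjusted p = 0.0344 for each).

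The largest value belonged to SplintRbar30, with -0.68 ± 0.26 over 68 cells (edgeR adjusted p = 0.349). NPAS3 made up 6.26%, 14.2% and 14.2% in chimpanzee 2, 3 and 4 against 11.6%, 20.0% and 18.3% in the other assigned cells. In chimpanzee 1, which had 3 cells with this barcode and did not enter the fit, it was 21.9% against 14.96%. Brainbar5 had 0.17 ± 0.04 (higher in 4 of 4, edgeR adjusted p = 0.264) and SplintRbar17 0.23 ± 0.10 (higher in 3 of 3, edgeR adjusted p = 0.423). The median size of the 24 values was 0.13 for NPAS3 and 0.06 for all pairs, with a median SE of 0.11 for NPAS3.

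**Figure D4:**
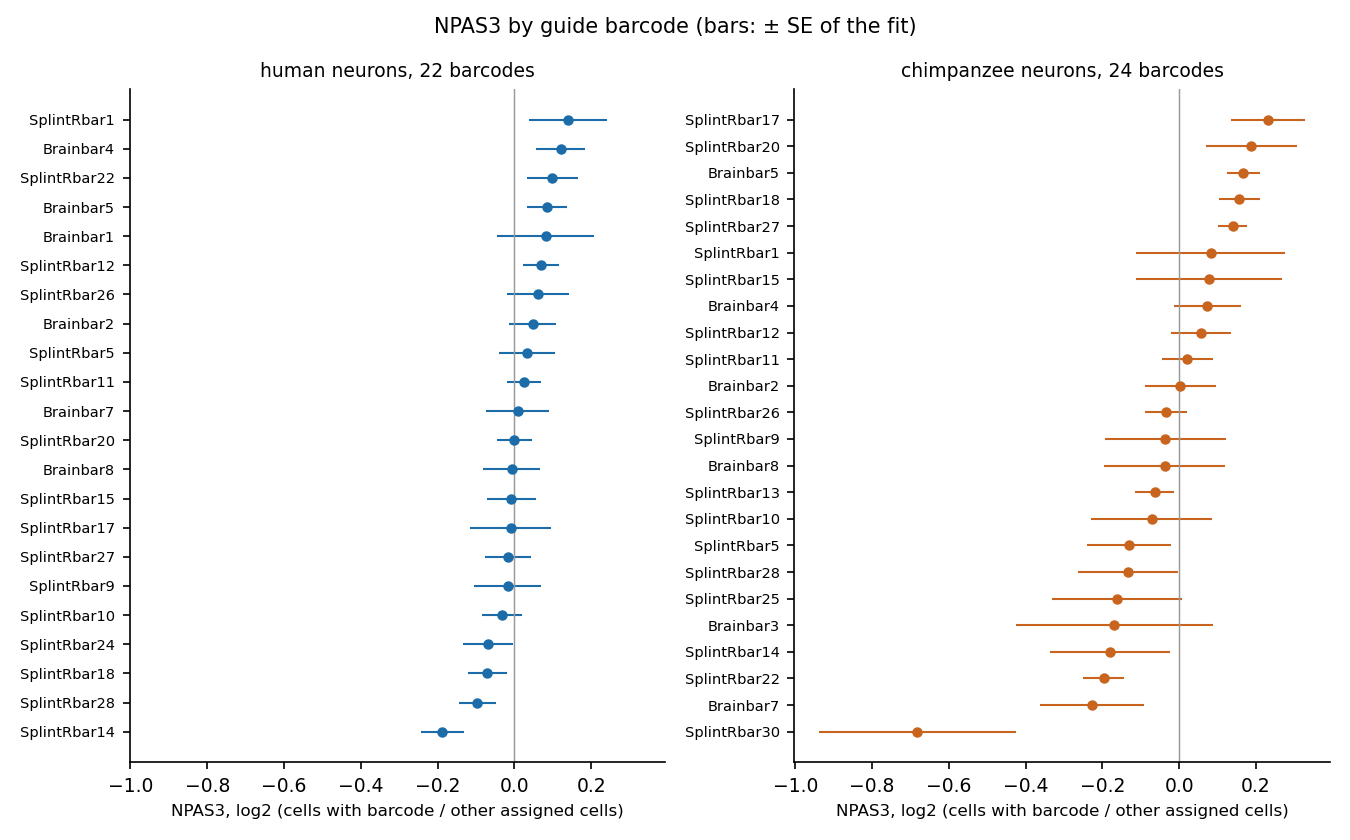
Log2 difference in NPAS3 between cells with a guide barcode and all other assigned cells, from the edgeR fit, for 22 barcodes in human and 24 in chimpanzee neurons. Bars are ± SE; human values lie between -0.19 and 0.14, and chimpanzee values between -0.68 (SplintRbar30) and 0.23 (SplintRbar17).

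Calls in chimpanzee neurons changed when a library was left out. Without chimpanzee 2, SplintRbar18 passed (edgeR adjusted p = 0.00144), and without chimpanzee 4, Brainbar4 and SplintRbar14 passed (edgeR adjusted p = 0.00225 and 0.0149). None of these 3 was among the barcodes called by the newer default. Without shared barcodes 0 of the barcodes passed in either species, and the smallest edgeR adjusted p was 0.499 in human and 0.0552 in chimpanzee neurons.

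Whether a barcode differed in its NPAS3 value between species was tested as an interaction. For 0 of 20 barcodes did it pass by edgeR's quasi-likelihood test (0 of 140 pairs, 0%), with 3 barcodes and 10 pairs at an unadjusted p under 0.05, and DESeq2 called 0 with 4 unadjusted. The human value lay below the chimpanzee value by -0.15 ± 0.06 for SplintRbar27 (edgeR adjusted p = 0.565) and above it by 0.18 ± 0.08 for SplintRbar22 (edgeR adjusted p = 0.636). SplintRbar22 passed without chimpanzee 1 (0.34 ± 0.09, edgeR adjusted p = 0.0435) and without chimpanzee 2 (0.42 ± 0.09, edgeR adjusted p = 0.00329).

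Agreement between screen replicates was described over barcodes with at least 20 assigned cells on each side, which share the comparison cells of their libraries. In human neurons the NPAS3 differences of 18 barcodes had a Pearson r of 0.47 and a Spearman correlation of 0.50 between screen replicates 1 and 2, and 11 of 18 had the same sign. In chimpanzee neurons Pearson's r was -0.01 and Spearman's correlation -0.03 over 18 barcodes, with 9 of the same sign. Between human and chimpanzee neurons they were -0.02 and 0.02 over 24 barcodes, with 9 of the same sign.

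Assigned cells as a whole differed from the other cells of their library in chimpanzee neurons. In human 1 to 5 NPAS3 made up 10.04%, 11.8%, 12.3%, 11.1% and 11.5% of the 7 genes in assigned cells and 10.9%, 11.7%, 12.9%, 11.3% and 11.1% in all other cells, with log2 differences of -0.11, 0.01, -0.07, -0.02 and 0.05. In chimpanzee 1 to 4 it made up 15.01%, 11.5%, 19.8% and 18.1% in assigned cells and 19.2%, 16.6%, 22.9% and 19.9% in the others, with log2 differences of -0.35, -0.53, -0.21 and -0.14. NPAS3 was thus lower in assigned cells in 4 of 4 chimpanzee libraries, and each of these differences was below that of every human library.

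This comparison was chosen after the values were seen. The mean log2 difference in human libraries lay 0.28 above that in chimpanzee libraries (exact permutation p = 0.00794, the smallest that 126 arrangements allow, adjusted p = 0.0278 over the 7 genes). AKAP6 was the other gene called of the 7 (2 of 7, 28.6%), in the opposite direction (-0.23, exact permutation adjusted p = 0.0278). Its share was 24.8% in assigned and 19.9% in other cells of chimpanzee 1, and 28.9% and 21.4% in chimpanzee 2. The change was smaller in chimpanzee 3 (10.95% and 10.35%) and in chimpanzee 4 (11.01% and 10.1%). Without the shared barcodes the NPAS3 value was 0.28 (exact permutation adjusted p = 0.0278). Without any 1 library it was 0.20 to 0.34 (exact permutation adjusted p = 0.0625 to 0.1, with each unadjusted p the smallest its arrangements allow).

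Depth also differed between these cells. Assigned cells of chimpanzee 1 to 4 had a median of 163, 84, 72 and 58 UMIs of the 7 genes, against 287, 131, 83 and 76 in the other cells. In human 1 to 5 the medians were 102, 90, 83.5, 76 and 62 against 163, 146, 141, 22 and 59. Averaged over groups of cells split at the quartiles of UMIs, the human minus chimpanzee value was 0.24 and did not pass (exact permutation adjusted p = 0.111). The log2 differences were then -0.38, -0.50, -0.20 and -0.11 in chimpanzee 1 to 4 and -0.14, 0.02, -0.10, -0.17 and 0.07 in human 1 to 5. The species overlapped on this scale, since human 1 and human 4 lay below chimpanzee 4. With no barcode tied to a control, the part of the guides in this difference was not tested.

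**Figure D5:**
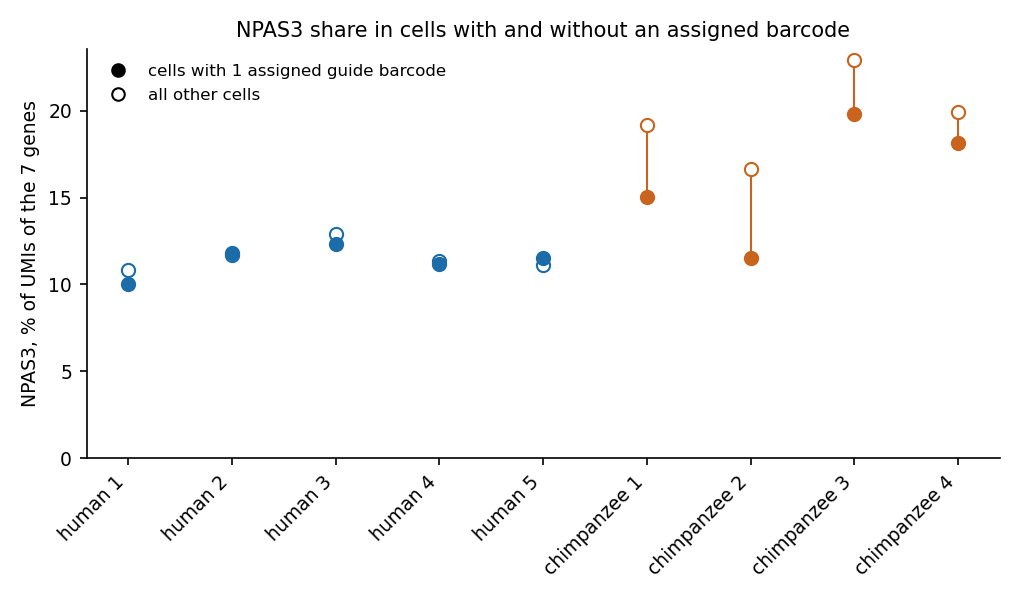
NPAS3 share of the UMIs of the 7 genes in cells assigned to 1 guide barcode (filled) and in all other cells (open) of the 9 libraries with more than 100 assigned cells. In chimpanzee libraries assigned cells are at 11.5% to 19.8% and other cells at 16.6% to 22.9%. The pairs are furthest apart in chimpanzee 1 and 2, while the log2 difference of chimpanzee 4 (-0.14) is near that of human 1 (-0.11).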

How the data were processed

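The deposited files are tables of UMI counts with cells in rows and with genes and guide barcodes in columns, per the file headers. Every value was a whole number (0 exceptions). Per the submitters' processing notes, the build was hg38 and the tools were UMI-tools, fastp, SAMtools and Bowtie. Tool versions and the filter on cells were not given in the sources used here. Doublets were neither marked nor removed. The match of the probes to chimpanzee transcripts was not examined, so a species difference in UMIs may include a difference in probe match, which was not tested.

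NPAS3, the gene lists, barcode rules and tests were chosen with earlier results of these data known. Genes most like NPAS3 were the 2 with the smallest SD of the log2 ratio and the 2 with the highest corrected correlation, and barcodes named were those that passed and the 5 with the smallest p per species. UMIs were summed per gene and library and tested with edgeR 4.0.16 in R 4.3.3 (quasi-likelihood, earlier method with a common dispersion, TMM factors, Benjamini-Hochberg at 0.05, at least 10 UMIs). The common dispersion shares the spread between genes, so SEs do not rest on NPAS3 alone. DESeq2 1.42.0 was an alternative. Guide classes needed 5 cells and a barcode 3 libraries. For single values per library, the difference in means was tested by two-sided exact permutation. Thinning used the hypergeometric expectation, and CVs and correlations removed binomial counting variance. Scripts were tested on simulated data. The scripts' other settings, leaving out each library and the replicate block are in the closing section. The screen replicate number does not pair single libraries, and it was used as a block only. Human 6 and chimpanzee 5 had too few assigned cells for guide tests.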

Additional observations from a re-analysis of the deposited data

Results flagged for a closer look

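Each NPAS3 measure was searched for a library far outside the others of its species; 2 of 20 groups held such a library, and chance gives about 1 in 20. Chimpanzee 1 had 58.6 NPAS3 UMIs per cell, while the other chimpanzee libraries had 14.4 to 22.6. That library also had the most UMIs of the other 6 genes per cell (252), and its NPAS3 share of 18.9% lay among the other chimpanzee libraries.

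Chimpanzee 2 would have NPAS3 detected in 95.7% of cells at 30 UMIs, while the other chimpanzee libraries lay at 98.6% to 99.7%. It also had the lowest NPAS3 share of the chimpanzee libraries (15.4%), the highest variation between cells (CV 0.42) and the largest fraction of cells with an assigned guide barcode (32.9%). Their part in the lower detection was not tested.

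In a comparison chosen after the values were seen, the difference in NPAS3 between cells with an assigned guide barcode and other cells was set against species. It lay 0.28 higher on the log2 scale in human than in chimpanzee libraries (exact permutation adjusted p = 0.0278, 5 human and 4 chimpanzee libraries), with NPAS3 lower in assigned cells in 4 of 4 chimpanzee libraries. Averaged over groups of cells of like depth it was 0.24, did not pass (exact permutation adjusted p = 0.111) and left the species overlapping, with human 4 at -0.17 and chimpanzee 4 at -0.11.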

How the results depend on the processing

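Over 18 results and 278 alternatives, 231 were rated the same. For tested values this meant the same direction and side of the threshold, and for counts of calls an equal or similar count. The 6 single ratios and the count of ratios that passed were both included. By edgeR, NPAS3 was lower in human neurons relative to the genes in the fit. This difference kept its direction and side of the threshold under all 23 alternatives for the 7 genes (log2 -0.77 to -0.42). It also did so under all 12 for the first panel (-0.88 to -0.61). With the larger panel it did not pass without TMM (-1.13), where the SE was larger. With screen replicate as a block the 7-gene value was -0.61; blocked permutation gave -0.70 for the share and, for UMIs per cell, -1.11 (also within panel and screen replicate), which then passed; without a library the latter ranged from -1.17 to -0.66 and did not pass. Within screen replicate 1 or 2 alone the share differed by -0.54 and -0.83 and 0 of the 6 ratios passed, since so few arrangements cannot pass. The ratio to BAZ1A, 0.03, changed sign under the block and within panel and screen replicate (-0.014 each), in screen replicate 2 (-0.35) and when leaving out a library (-0.076 to 0.156); that to TENM3, -0.01, did so in screen replicate 1 (0.10) and when leaving out a library (-0.060 to 0.053). Detection passed at 20 UMIs (-5.67 points) and ranged from -2.76 to -1.75 without a library. The CV difference was 0.054 in screen replicate 2, -0.165 in screen replicate 1 and -0.088 to -0.013 without a library. Guide calls in chimpanzee neurons were 2 by edgeR's newer default and 0 to 2 without a library; interaction calls were 1 with 2 UMIs and 50% (SplintRbar20) and 0 to 1 without a library. The assigned-cell difference was 0.24 within groups split by depth, 0.46 with 10 UMIs and 90% (2 libraries per species, too few to pass) and 0.20 to 0.34 without a library, none passing. With 2 UMIs and 50% it was 0.18 and passed (exact permutation adjusted p = 0.0278). Where not stated, the cause was not tested. Depth limits human 4 most, with a median of 28 UMIs per cell.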
